A study of Mus musculus with 8 samples.

Results

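The genes described here are 10 members of the Bcl2 family, the proteins that decide whether the outer membrane of the mitochondria is opened during apoptosis. They were chosen by gene name: Bcl2, Bcl2l1, Mcl1 and Bcl2l2, which block cell death, Bax and Bak1, which carry it out, and Bcl2l11, Bbc3, Pmaip1 and Bid, which trigger it. All 10 were found among the 54532 genes of the count table, and all 10 were among the 17138 genes with enough counts to be tested. Whole lungs of 8 CC-LR mice were profiled by RNA-seq at 14 weeks of age, 4 in the Control group and 4 given TTI-101, a small-molecule inhibitor of the transcription factor STAT3, for 4 weeks, with 1 library for each mouse. Both groups carried the same alleles on a C57BL/6 background: Cre recombinase at the club cell secretory protein locus, and the LSL-K-ras G12D allele that Cre switches on. Mutant K-ras was therefore driven in the lung epithelium, while the libraries came from every cell type of the lung. Whole-lung RNA does not separate tumor cells from the rest of the lung, and a difference in RNA per cell cannot be told apart from a difference in the number of cells that express a gene. How TTI-101 was given to the sequenced mice, what the Control mice received and which mice were male or female are not given in the sources used here.

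In this pathway Bax and Bak1 form pores in the mitochondrial outer membrane, cytochrome c leaves through them, and the caspases are then switched on. Bcl2, Bcl-xL (the product of Bcl2l1), Mcl1 and Bcl-w (the product of Bcl2l2) hold the pore formers and the BH3-only proteins in check, and the BH3-only proteins Bim, Puma, Noxa and Bid (the products of Bcl2l11, Bbc3, Pmaip1 and Bid) relieve that check or act on the pore formers directly. STAT3 is known in many tumors as an activator of Bcl2l1, Mcl1 and Bcl2, and much of the family is regulated after translation, which mRNA counts do not measure.

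The libraries held 16446481 to 26873509 counts in Control and 16075855 to 25920509 in TTI-101, and the counts of single members ran from 90 for Pmaip1 in Control 4 to 13378 for Mcl1 in TTI-101 1. Markers of lung tissue were all present in every library. Control 4 stood apart, at 101.1 on a first principal component that held 45.2% of the variance, with the other 7 libraries between -39.3 and 17.9. It also had 5.56% of its counts in mitochondrial genes against 2.44% to 2.85% in the other Control libraries, and a summed level of 5 endothelial markers of 837 CPM against 2008 to 2255 CPM in the other Control and 1885 to 3345 CPM in TTI-101 libraries. Values without this library stand beside the results that it moved most.

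Because the mice were given a STAT3 inhibitor, the promoters of the members were searched for TTCNNNGAA, a pattern that STAT proteins bind and that reads the same on both strands. The RefSeq promoter table (GRCm38.p6, 300 bases around each start, most of them upstream) held 14 promoters of 9 members, Pmaip1 not being matched. The pattern was in 0 of these 14, against 8.3% of all 32851 promoters. Patterns with a spacing of 2, 4 or 5 bases were then searched, a choice made after that result was seen, and 3 of the 14 promoters held 1 of the 4 patterns, against 26.7% of all promoters. The members thus held the patterns no more often than promoters in general. The matches, in Bcl2l1 and Mcl1, are printed to show what was found, with the pattern in capitals.
Bcl2l1, TTCNNNNGAA, chr2:152828475-152828502, minus strand: gagtgctttTTCTTCAGAAtcctgctcg
Bcl2l1, TTCNNNNNGAA, chr2:152830827-152830855, minus strand: accttgagaTTCACTTGGAAgtcccttta
Mcl1, TTCNNNNNGAA, chr3:95658515-95658543, plus strand: caggaaccaTTCCCCGGGAAgccaagcac
The first base of the pattern lay 4 and 129 bases upstream of separate start sites of Bcl2l1 and 197 bases upstream of that of Mcl1. A match of letters is a description of the sequence and not evidence that a factor binds there, and the absence of a match says only that these letters are not in this window.

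Levels of different genes were compared as CPM per kb, that is CPM (counts relative to the TMM-scaled library size) divided by the gene length in the count table. Mcl1, the short-lived inhibitor, had the highest level at 125 ± 20.5 CPM per kb (SD, n = 8). It was 3.78 times that of the next member, and its lowest library lay above the highest library of any other member. Bax at 33.0 ± 7.52 and Bcl2l1 at 32.4 ± 5.68 CPM per kb could not be ordered, Bax being the higher in 4 of 8 libraries. Bcl2l2 followed at 18.9 ± 2.59 CPM per kb, below Bcl2l1 in every library and with separate ranges. Bbc3 at 13.1 ± 3.46 and Bak1 at 11.3 ± 2.00 CPM per kb again overlapped, with Bbc3 the higher in 5 of 8 libraries. Below a gap without overlap came Bcl2l11 at 6.03 ± 1.04 CPM per kb, then Pmaip1 at 4.47 ± 1.63 CPM per kb, which was lower than Bcl2l11 in 7 of 8 libraries. Bid at 2.80 ± 0.649 and Bcl2 at 2.53 ± 0.568 CPM per kb were lowest, and their order differed between libraries. The gene that names the family thus had the lowest mean level per length in these lungs, although its gene length of 9157 bases is the longest of the 10 and enters the level directly.

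**Figure D1:**
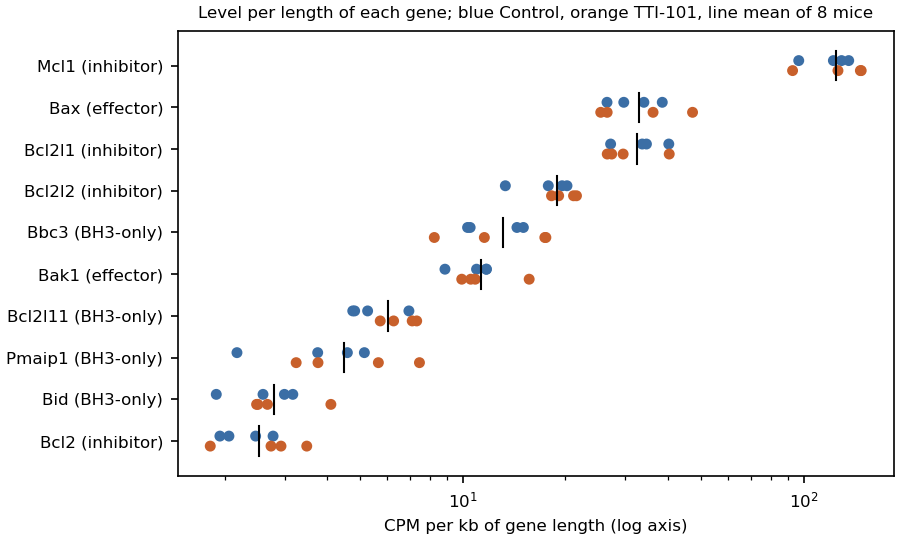
Level of each member in each mouse, as CPM per kb of gene length on a log axis, with 4 Control mice in blue, 4 TTI-101 mice in orange and a line at the mean of all 8. Mcl1 stands alone at the top at 125 CPM per kb, while Bax and Bcl2l1, Bbc3 and Bak1, and Bid and Bcl2 form overlapping pairs.

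Summed by role, the 4 inhibitors reached 175 ± 16.4 CPM per kb in Control and 182 ± 20.4 CPM per kb in TTI-101 lungs (SD, n = 4 each), of which Mcl1 made up 69.4%. The 2 effectors summed to 43.0 ± 5.33 and 45.6 ± 11.1 CPM per kb. The 4 BH3-only genes summed to 24.6 ± 3.602 CPM per kb in Control and 28.3 ± 2.56 CPM per kb in TTI-101 lungs. The group means of the inhibitors and of the effectors differed by less than the SD within a group, and those of the BH3-only genes by slightly more. The lowest BH3-only sum, 19.3 CPM per kb, was that of Control 4, which lowered the Control mean. That library had the lowest Bcl2l11, Pmaip1 and Bid of all mice.

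The groups were then compared gene by gene with edgeR's quasi-likelihood test, with the Benjamini-Hochberg adjustment taken over all genes tested. None of the 10 members was called at an adjusted p under 0.05, where the share of all genes called was 0.0%. At an unadjusted p under 0.05, 0 of 10 members passed in edgeR, limma-voom and DESeq2, against 6.61% of all genes in edgeR, and at 0.01 again 0 of 10, against 0.677%. The log2 fold changes of TTI-101 over Control ran from -0.13 for Bcl2l1 to 0.36 for Pmaip1, with standard errors (SE) of 0.15 to 0.33. The fitted change was above 0 for 9 of 10 members and for 50.6% of all genes, and the median was 0.13 for the members and 0.00 for all genes tested. That count depended on single mice: it was 6 without TTI-101 3, 7 without TTI-101 2 and 8 without Control 1. The groups overlapped for every member, where 2.96% of all genes had groups that did not.

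The 95% intervals, taken for each member on its own, bound the change in mean whole-lung level and not a change within 1 cell type. For 9 of 10 members the upper bound lay below a 2-fold increase, between 1.20-fold for Bcl2l1 and 1.65-fold for Bcl2, and the exception was Pmaip1 at 2.12-fold. The lower bounds lay between 0.695-fold for Bcl2l1 and 0.947-fold for Bcl2l11, so that a fall of the mean to 0.5-fold was outside the interval of all 10 members.

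**Figure D2:**
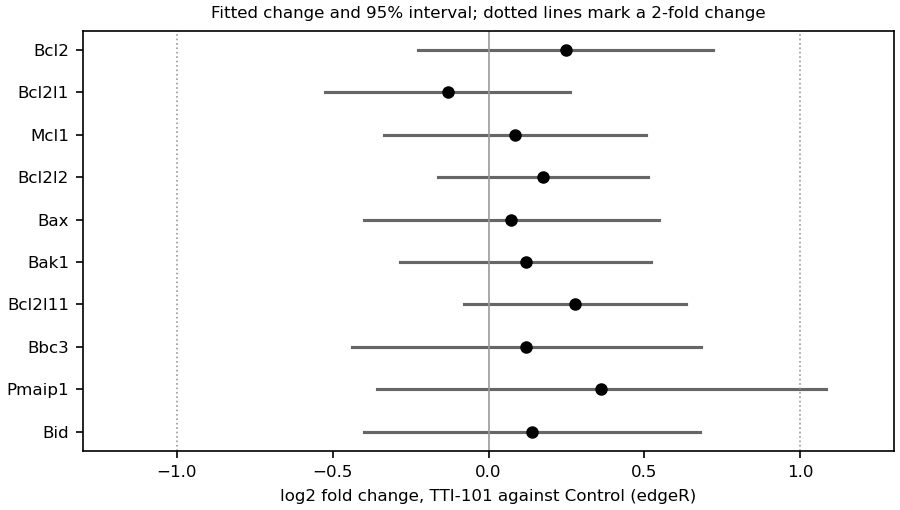
Fitted log2 fold change of TTI-101 over Control for each member (points) with its 95% interval derived from the edgeR F-test (lines), and dotted lines at a 2-fold change. All 10 intervals span 0, and the interval of Pmaip1 alone reaches past a 2-fold increase.

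Among the inhibitors, Bcl2 (ENSMUSG00000057329; chromosome 1, 106538178 to 106714274 in GRCm38, as for all positions given here) encodes the founding member, which protects mitochondria and the endoplasmic reticulum. It was at 25.4, 22.6, 17.8 and 18.9 CPM in Control 1 to 4 and at 31.9, 16.6, 25.1 and 26.8 CPM in TTI-101 1 to 4. The highest and the lowest of the 8 libraries were both treated, and 3 of 4 treated mice lay above the Control mean, a condition that at least 3 treated mice met for 4 members and for 35.2% of all genes. Expression was 21.2 ± 3.52 CPM in Control and 25.1 ± 6.35 CPM in TTI-101 lungs (SD, n = 4 each), and the log2 fold change was 0.25 (SE 0.21, adjusted p = 0.734 in edgeR). The value depended on single treated mice: it was 0.11 without TTI-101 1, and 0.41 without TTI-101 2, with an unadjusted p of 0.0457 and an adjusted p of 0.343 in edgeR.

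Bcl2l1 (ENSMUSG00000007659; chromosome 2, 152780668 to 152831728) has 9 annotated transcripts, and among its products are the protective Bcl-xL and a shorter form that promotes death, which counts per gene do not separate. It was at 124, 154, 159 and 184 CPM in Control and at 122, 185, 135 and 125 CPM in TTI-101 lungs. TTI-101 2 was as high as the highest Control library, while the other 3 treated mice lay below the Control mean of 155 ± 24.6 CPM. The treated mean was 142 ± 29.3 CPM, and the log2 fold change of -0.13 (SE 0.18, adjusted p = 0.830 in edgeR) was the one value below 0 among the members. It moved to -0.03 without Control 4 and to -0.27 without TTI-101 2, and stayed below 0 under every alternative run.

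Mcl1 (ENSMUSG00000038612; chromosome 3, 95658788 to 95663176), whose protein is made and degraded within hours, was at 441, 418, 463 and 331 CPM in Control and at 504, 317, 431 and 501 CPM in TTI-101 lungs. Control 4 and TTI-101 2 were the low libraries, 1 in each group, and the other 6 lay between 418 and 504 CPM. Means were 413 ± 58.2 CPM in Control and 438 ± 87.6 CPM in treated lungs, with a log2 fold change of 0.08 (SE 0.19, adjusted p = 0.906 in edgeR), which was 0.005 without Control 4 and 0.23 without TTI-101 2. Both low libraries also had the lowest sums of endothelial markers, 837 CPM in Control 4 and 1885 CPM in TTI-101 2, and whether this bears on Mcl1 was not tested.

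Bcl2l2 (ENSMUSG00000089682; chromosome 14, 54883377 to 54888234) encodes Bcl-w and had the smallest SE of the 10 members. It was at 79.5, 90.2, 87.3 and 59.5 CPM in Control and 96.2, 85.3, 94.3 and 81.3 CPM in TTI-101 lungs. All 4 treated mice lay above the Control mean, which is so for 13.0% of all genes, but that mean was lowered by Control 4, and 2 treated mice lay within the range of the other 3. The log2 fold change was 0.17 (SE 0.15, adjusted p = 0.736 in edgeR) with Control 4 and 0.07 without it.

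**Figure D3:**
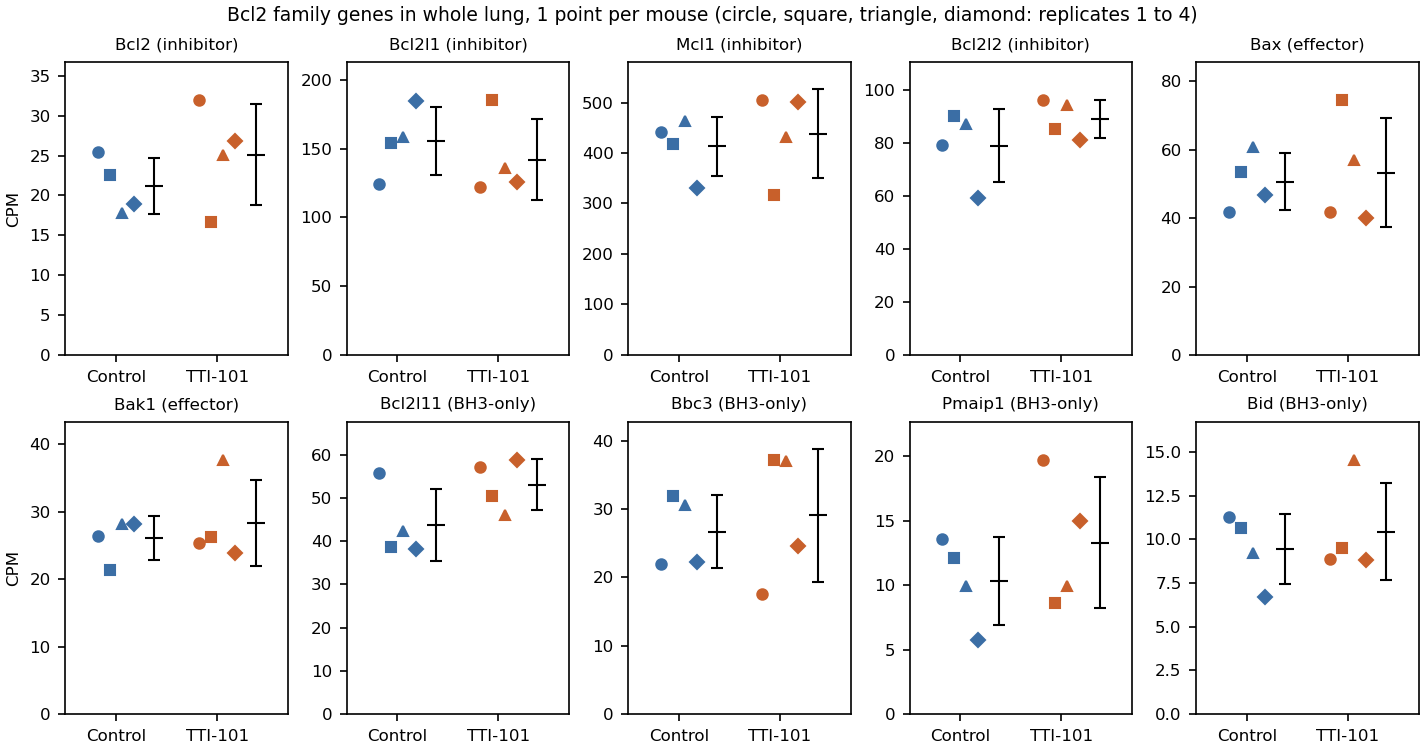
CPM of each member in each mouse, with Control in blue, TTI-101 in orange, symbols for replicates 1 to 4 and bars for the mean ± SD (n = 4). Treated and Control points overlap in all 10 panels, and the SD of the 4 treated mice is the larger for every member except Bcl2l2 and Bcl2l11.

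The effectors were measured at nearly the same mean in both groups, with a wider spread among the treated mice. Bax (ENSMUSG00000003873; chromosome 7, 45461697 to 45466898), a pore former that waits in the cytosol, was at 41.7, 53.6, 60.6 and 46.8 CPM in Control and at 41.8, 74.4, 57.0 and 40.0 CPM in TTI-101 lungs. The treated group thus held the highest library and the lowest, TTI-101 2 and TTI-101 4. Means of 50.7 ± 8.22 and 53.3 ± 16.0 CPM gave a log2 fold change of 0.07 (SE 0.21, adjusted p = 0.931 in edgeR), which changed sign to -0.12 without TTI-101 2 and to -0.01 without Control 1.

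Bak1 (ENSMUSG00000057789; chromosome 17, 27019810 to 27029009), the pore former that resides in the mitochondrial membrane, was at 26.4, 21.3, 28.2 and 28.2 CPM in Control and at 25.4, 26.2, 37.7 and 23.9 CPM in TTI-101 lungs. Only TTI-101 3 lay above the Control range. The log2 fold change of 0.12 (SE 0.18, adjusted p = 0.850 in edgeR) became -0.05 without that library. Bak1 is uncertain for another reason: all 9200 bases of the gene lie under Ggnbp1 on the opposite strand, which had 137 to 273 counts in these libraries, and the strand setting of the counting is not given in the sources used here. Ggnbp1 itself was at 11.5 CPM in TTI-101 3, inside its range of 7.73 to 16.4 CPM.

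The BH3-only genes included the member with the lowest p and the member with the largest fitted change. Bcl2l11 (ENSMUSG00000027381; chromosome 2, 128126038 to 128162547) encodes Bim, which binds all the inhibitors and is held down by growth factor signaling through ERK. It was at 55.8, 38.7, 42.2 and 38.2 CPM in Control and at 57.1, 50.3, 46.0 and 58.8 CPM in TTI-101 lungs. Every treated mouse lay above 3 of the Control mice, whereas Control 1 lay within the treated range. Means were 43.7 ± 8.25 CPM in Control and 53.04 ± 5.96 CPM in treated lungs, and the log2 fold change was 0.28 (SE 0.16, unadjusted p = 0.113, adjusted p = 0.657 in edgeR). Without Control 1 the log2 fold change was 0.42 with an unadjusted p of 0.0205 and an adjusted p of 0.306 from edgeR, and over all libraries left out in turn it ran from 0.23 to 0.42.

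Bbc3 (ENSMUSG00000002083; chromosome 7, 16308393 to 16318205) encodes Puma, a main p53 target for cell death. It was at 21.9, 32.0, 30.6 and 22.3 CPM in Control and at 17.5, 37.2, 37.0 and 24.6 CPM in TTI-101 lungs. The libraries fell into high and low ones in both groups, with the lowest and the 2 highest among the treated. The log2 fold change was 0.12 (SE 0.25, adjusted p = 0.896 in edgeR), and it was -0.01 without TTI-101 2 and -0.02 without TTI-101 3.

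Pmaip1 (ENSMUSG00000024521; chromosome 18, 66458604 to 66465550) encodes Noxa, which is selective for Mcl1. It was at 13.6, 12.1, 9.93 and 5.76 CPM in Control and at 19.7, 8.59, 9.95 and 15.0 CPM in TTI-101 lungs. The 3.43-fold span from Control 4 to TTI-101 1 was the widest of the 10 members. The log2 fold change of 0.36 (SE 0.33, adjusted p = 0.742 in edgeR) rested on these 2 libraries: it was 0.18 without Control 4 and 0.11 without TTI-101 1.

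Bid (ENSMUSG00000004446; chromosome 6, 120891930 to 120916853), which is cut by caspase 8 and so joins the death receptors to the mitochondria, was at 11.3, 10.6, 9.21 and 6.72 CPM in Control and at 8.89, 9.49, 14.6 and 8.82 CPM in TTI-101 lungs. Apart from TTI-101 3 the treated mice lay within the Control range. The log2 fold change was 0.14 (SE 0.24, adjusted p = 0.869 in edgeR), -0.06 without TTI-101 3 and 0.02 without Control 4. Bid shares 913 bases with Bcl2l13 on the opposite strand, which had 431 to 902 counts, so part of its count is uncertain as well.

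Seen by mouse rather than by gene, no library had all members on the same side of their mean, and Control 4 came nearest to it. Control 4 was below the mean of the 8 mice for 8 of 10 members, with a median deviation of -0.30 on the log2 scale, whereas 49.9% of all genes were below the mean in that library. It held the lowest value of 4 members, and of 28.7% of all genes. The exceptions in Control 4 were Bcl2l1, which was 0.33 above its mean, and Bak1. TTI-101 1 was highest for 4 members, Bcl2, Mcl1, Bcl2l2 and Pmaip1, and lowest for Bcl2l1 and Bbc3. TTI-101 2 had the highest Bcl2l1, Bax and Bbc3 and the lowest Bcl2 and Mcl1. The treated mice thus differed from each other, and not in 1 direction shared by all members.

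**Figure D4:**
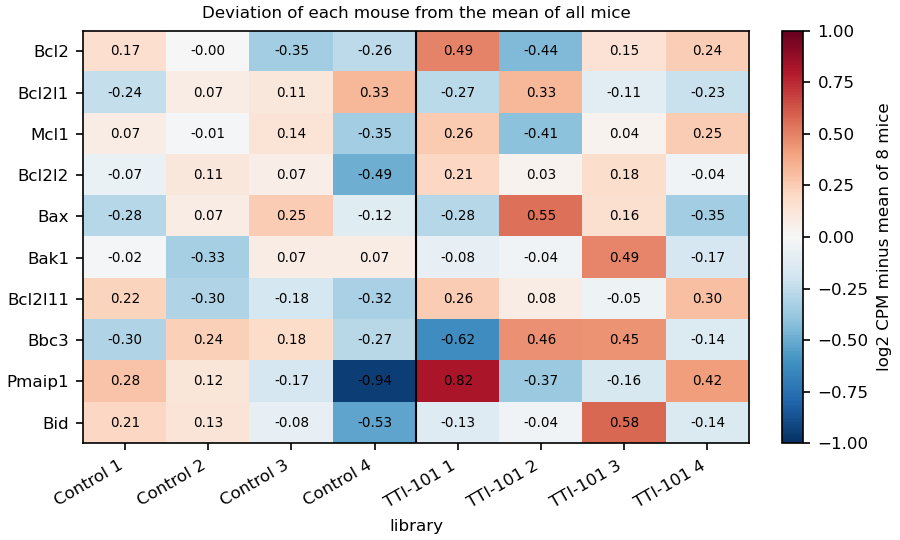
Log2 CPM of each member in each library minus the mean of that member over the 8 mice, in red where higher and blue where lower, with Control on the left and TTI-101 on the right. Pmaip1 is 0.94 below its mean in Control 4 and 0.82 above it in TTI-101 1, and in TTI-101 2 Bcl2 and Mcl1 are low where Bcl2l1, Bax and Bbc3 are high.

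The balance of a pore former or trigger against the inhibitor it meets was described within each mouse as a difference of log2 CPM. The difference of Bax and Bcl2 was 0.71, 1.24, 1.77 and 1.305 in Control and 0.39, 2.15, 1.18 and 0.58 in TTI-101 lungs. The treated mice spanned more than the whole Control range, with 1 above it and 2 below it, and the means of 1.26 ± 0.43 and 1.07 ± 0.80 (SD, n = 4 each) differed by -0.18. For the other 5 pairs the treated mean was the higher, by 0.18 for Bax and Bcl2l1, 0.07 for Bcl2l11 and Bcl2, 0.22 for Bcl2l11 and Mcl1, 0.28 for Pmaip1 and Mcl1 and 0.21 for Bbc3 and Bcl2l1. The groups overlapped for all 6 pairs, and each of these differences was smaller than the SD of the Control mice.

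For each member, the tested gene with the nearest profile over the 8 libraries was found from the root mean square difference of log2 CPM centred on each gene's mean. These were Nectin3 for Bcl2, Fitm2 for Bcl2l1, Rac1 for Mcl1, Gabarapl1 for Bcl2l2, Ccdc12 for Bax, Fbxo6 for Bak1, Psd4 for Bcl2l11, Plekhh3 for Bbc3, Gbp7 for Pmaip1 and Zbtb8a for Bid. The difference was smallest for Bcl2l1 and Fitm2, at 0.0297, and largest for Bbc3 and Plekhh3, at 0.124, against a median over all genes of 0.378 to 0.583 depending on the member. Each neighbour was the closest of all tested genes, so a difference below the median follows from the search itself. No gene of this family was the nearest to another. With so many candidate genes, that does not show whether the members moved together.

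Of the other Bcl2 family genes, 11 of 13 were tested, Bcl2l10 and Bcl2l15 having too few counts. None passed an unadjusted p under 0.05 in edgeR, 3 had a fitted change above 0 and 8 below, and the median was -0.31 against 0.13 in the 10 members, whereas without Control 4 it was 5 above and 6 below, with medians of -0.12 and 0.06. Bcl2l14 was at 11.5 ± 6.37 CPM in Control and 7.07 ± 2.81 CPM in TTI-101 lungs (log2 fold change -0.69, adjusted p = 0.657 in edgeR), with 21.0 CPM in Control 4, and without that library its log2 fold change was -0.22. Bok, a pore former related to Bax, was at 30.6 ± 10.3 and 23.5 ± 13.8 CPM, and its log2 fold change of -0.38 was -0.15 without Control 4 and -0.84 without TTI-101 2. The inhibitors Bcl2a1a, Bcl2a1b and Bcl2a1d had log2 fold changes of -0.48, -0.46 and -0.31, and as near-identical copies their counts are uncertain. Without Control 4 these were -0.33, -0.12 and -0.23, and without Control 1 they were -0.27, -0.42 and -0.12. Among BH3-only genes outside the 10, Bmf was at 66.5 ± 4.12 and 59.1 ± 13.8 CPM, Bad at 32.6 ± 6.55 and 30.4 ± 8.05 CPM and Bik at 12.9 ± 3.06 and 14.9 ± 6.12 CPM, while Hrk was at 1.05 ± 0.835 and 0.678 ± 0.708 CPM. Bcl2l12 and Bcl2l13 had log2 fold changes of 0.16 and 0.00.

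The steps above and below the family were covered by further lists, and with the other family genes 76 of 78 listed genes were tested. None was called at an adjusted p under 0.05 in edgeR. At an unadjusted p under 0.05, Trp53 was higher and Birc5 was lower, where 3.02% and 3.58% of all genes passed in those directions, and 28 of 76 fitted changes were above 0 with a median of -0.09. Trp53, which encodes p53, the activator of Bbc3, Pmaip1 and Bax, was at 53.4, 42.6, 50.1 and 39.6 CPM in Control and at 64.2, 52.1, 81.7 and 63.5 CPM in TTI-101 lungs. Every treated library but TTI-101 2 lay above all Control libraries. The log2 fold change was 0.49 (SE 0.17, unadjusted p = 0.0138, adjusted p = 0.657 in edgeR), between 0.37 and 0.60 with each library left out.

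Trp53 headed a list of 14 genes with p53 targets and regulators, of which 11 had a fitted change below 0, with a median of -0.15. Without TTI-101 3, 8 of the 14 were below 0, and without Control 4, 9 of them. Cdkn1a, the p53 target that halts the cell cycle, was at 143 ± 35.3 CPM in Control and 132 ± 42.6 CPM in TTI-101 lungs, and Mdm4, an inhibitor of p53, was at 140 ± 5.38 and 132 ± 24.3 CPM. Of 8 genes that can induce BH3-only genes, Trp53 among them, 4 had a fitted change above 0 and the median was 0.02, with Atf4, a stress factor, at -0.22 and Foxo3, which activates Bcl2l11, at -0.06 on the log2 scale.

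Birc5 encodes survivin, an IAP family protein needed for cell division, and was at 5.17, 7.59, 7.77 and 7.93 CPM in Control and at 3.24, 6.85, 3.45 and 2.19 CPM in TTI-101 lungs. All treated libraries but TTI-101 2 lay below every Control library, and the log2 fold change was -0.86 (SE 0.34, unadjusted p = 0.0313, adjusted p = 0.657 in edgeR). It ran from -1.25 to -0.66 with each library left out. The 5 markers of dividing cells summed to 47.7 to 121 CPM in Control (47.7 to 68.4 CPM without Control 4) and 33.3 to 54.9 CPM in TTI-101 lungs. All 5 were lower, 4 of 5 at an unadjusted p under 0.05 in edgeR, against 3.58% of all genes. Their part in the Birc5 difference was not tested. The same list of 9 IAP proteins and their antagonists held Septin4, whose ARTS isoform, which counts per gene do not separate, antagonizes Xiap. Septin4 was at 154 ± 57.9 CPM in Control and 246 ± 73.1 CPM in TTI-101 lungs (unadjusted p = 0.0504, adjusted p = 0.657 in edgeR). Control 4 was at 74.8 CPM against 147 to 205 CPM in the other Control libraries, and the TTI-101 libraries were at 168 to 344 CPM. Xiap was at 147 ± 21.0 and 142 ± 38.7 CPM.

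The 11 genes in the list of the apoptosome and the caspases had a median log2 fold change of 0.03, with 6 above 0. Cycs, which encodes the cytochrome c that the pore releases, was at 47.1, 47.8, 55.1 and 54.4 CPM in Control and at 43.7, 46.8, 44.2 and 38.7 CPM in TTI-101 lungs. Every treated library lay below every Control library, as was so for 1.43% of all genes, but the highest treated and the lowest Control library were close, and the log2 fold change was -0.24 (SE 0.13, adjusted p = 0.657 in edgeR). Casp2, an initiator caspase, was at 43.5 ± 5.96 and 44.9 ± 3.91 CPM.

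All 8 mitochondrial partners had a fitted change below 0, within a narrow range of -0.19 to -0.08 and with no unadjusted p under 0.05 in edgeR. This held under each scaling tried, and 7 of 8 were below 0 without TTI-101 2 or TTI-101 3. Vdac2, the channel that binds Bak1 and Bax, was at 179 ± 11.0 and 168 ± 16.1 CPM, and the mitophagy receptor Bnip3l was at 170 ± 11.8 and 159 ± 17.5 CPM. In the death receptor arm 8 of 10 genes had a fitted change above 0, with a median of 0.08 and no unadjusted p under 0.05 in edgeR. The count ran from 7 to 9 under the alternatives with all libraries and from 6 (without TTI-101 3) to 9 (without Control 4) with a library left out, and the median reached 0.17 without TTI-101 2. Tnfrsf1a, the main TNF receptor, was at 176 ± 12.6 and 202 ± 31.8 CPM, and Cflar, the inhibitor of caspase 8, was at 136 ± 19.4 and 144 ± 34.8 CPM. Of 6 genes that control the turnover of Mcl1 protein, none passed an unadjusted p under 0.05 in edgeR. The ubiquitin ligase Huwe1 was at 280 ± 57.6 and 233 ± 37.9 CPM, with 3 treated libraries below all Control libraries. Control 4 was at 364 CPM against 237 to 272 CPM in the other Control libraries, and the log2 fold change of -0.27 was -0.10 without it. The kinase Gsk3b was at 107 ± 15.4 and 100 ± 24.6 CPM. Of the genes named in these lists, Bad, Hrk, Xiap, Cdkn1a, Foxo3, Gsk3b and Casp2 had fitted changes of the other sign without Control 4, between -0.0014 and 0.0634.

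**Figure D5:**
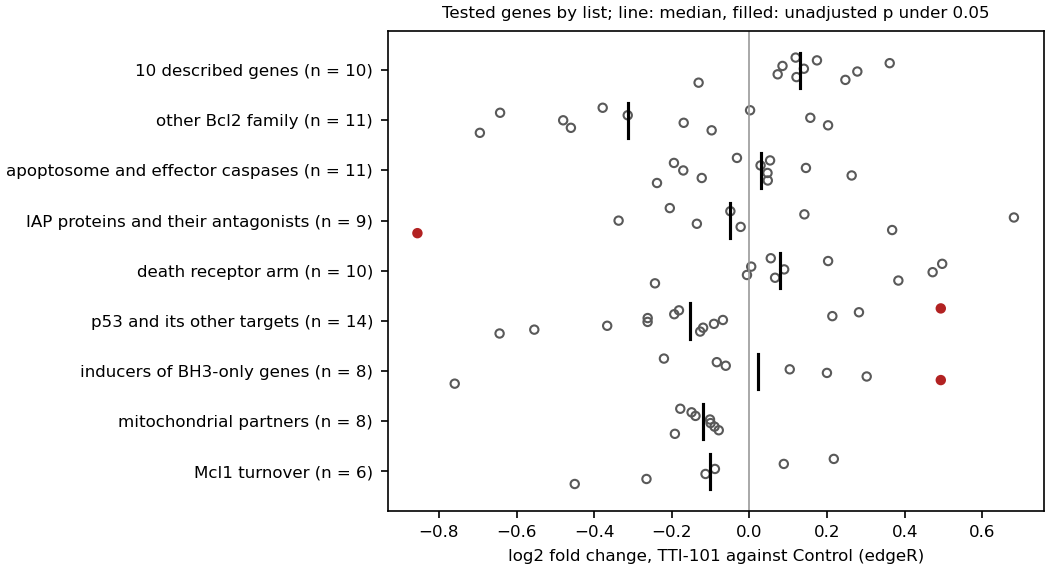
Log2 fold change of every tested gene in each list (circles), with a line at the median and filled circles for an unadjusted p under 0.05. The 10 members lie between -0.13 and 0.36, Trp53 is drawn in both lists that hold it, and Birc5 at -0.86 is the lowest value plotted.

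The levels of cell type markers varied between these lungs, and Control 4 set 1 end of the Control range for each list given here. Summed B cell markers were at 103 to 302 CPM in Control (173 to 302 CPM without Control 4) and at 269 to 552 CPM in TTI-101 lungs. Of these markers, 8 of 8 were higher at an unadjusted p under 0.05 in edgeR, against 3.02% of all genes. In the same order, red cell markers were at 58.5 to 264 (58.5 to 125) and 205 to 1586 CPM, with 4 of 5 tested markers higher at an unadjusted p under 0.05. Ciliated cell markers were at 582 to 1374 (582 to 918) and 491 to 952 CPM, with 3 of 7 lower at that threshold, against 3.58% of all genes. No marker of the remaining 4 lists given here passed that threshold, and no gene at all passed an adjusted p under 0.05 in edgeR. Fitted changes were above 0 for 8 of 8 T cell, 5 of 5 neutrophil and 5 of 7 alveolar macrophage markers tested. For alveolar type 2 cell markers this was so for 0 of 6. All 5 endothelial markers, whose sums stand further above, were also higher, with 0 at an unadjusted p under 0.05 in edgeR. Of all genes, 50.6% had a fitted change above 0. T cell markers were at 32.0 to 105 (54.4 to 105) and 59.7 to 117 CPM, neutrophil markers at 35.2 to 279 (52.2 to 279) and 60.6 to 430 CPM, alveolar macrophage markers at 411 to 1132 (435 to 1132) and 544 to 773 CPM, and alveolar type 2 cell markers at 41092 to 73235 (41092 to 48742) and 32073 to 58266 CPM. The part of these cells in the levels of the 10 members was not tested.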

How the data were processed

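Poly(A) RNA of 8 mouse lungs was made into stranded paired-end libraries. The authors deposited raw counts for each Ensembl gene, whole numbers with no scaling, made by the sequencing provider's pipeline. The submitters' processing notes name STAR, DESeq2 and mm10. Versions, the counting tool and its strand setting are not given in the sources used here.

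Group differences were tested with edgeR 4.0.16 (R 4.3.3). Genes were filtered by filterByExpr (minimum count 10), scaled by TMM, compared by robust quasi-likelihood F-tests without covariates, and adjusted by Benjamini-Hochberg over 17138 genes. CPM used TMM-scaled library sizes, and log2 CPM a prior count of 2. Alternatives were DESeq2 1.42.0, limma-voom (limma 3.58.1), size factors of DESeq2, raw library sizes, all genes unfiltered, a minimum of 10 counts throughout, a replicate block, Xist as covariate, a prior count of 0.5, and the omission of single libraries. Simulated counts with 200 changed genes served as a check of the fits, at an adjusted p under 0.05. Of these, edgeR found 111 with 6 false calls, limma-voom 113 with 6, and DESeq2 139 with 36. Among 100 genes changed 4-fold, they found 83, 84 and 89, so many true changes were missed.

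The members and lists were chosen with earlier results of these data known. The text names all members and every tested gene of the other Bcl2 family list. From each other list it names up to 5 genes with an unadjusted p under 0.05 and the 2 of highest mean CPM. Cycs was among these by its level, and its lack of overlap was described after its values were seen. Gene positions and overlaps were read from the count table and GENCODE M21, and promoters from RefSeq. P-values set a group difference against the spread between these mice, which the fits estimate for each gene with the help of all other genes.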

Additional observations from a re-analysis of the deposited data

Results flagged for a closer look

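In 38 groups of 4 libraries, the gap of the highest or the lowest library to its nearest neighbour was divided by the range of the group and set against Dixon's 95% critical value. This singled out 4 groups, where chance gives about 1.9. Among the members both cases were the same mouse. Bak1 was at 37.7 CPM in TTI-101 3 against 23.9 to 26.2 CPM in the other treated mice, a gap of 0.835 of the range. Bid was at 14.6 CPM in TTI-101 3 against 8.82 to 9.49 CPM, a gap of 0.884 of the range. Of the library measures, the total count of Control 1 was 26873509 against 16446481 to 18220467 in the other Control libraries, a gap of 0.83, and the mitochondrial share of Control 4 was 5.56% against 2.44% to 2.85%, a gap of 0.867.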

How the results depend on the processing

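Over 160 values of the 10 members under the alternatives, 0 reached an adjusted p under 0.05, the smallest being 0.306, and 2 reached an unadjusted p under 0.05, so that the count of members passing it was 0 to 1 with each library left out. The sign changed in 6 values, all with a library left out. With each library left out, log2 fold changes ranged from 0.11 to 0.41 for Bcl2, -0.27 to -0.03 for Bcl2l1, 0.005 to 0.23 for Mcl1, 0.07 to 0.25 for Bcl2l2, -0.12 to 0.19 for Bax, -0.0496 to 0.19 for Bak1, 0.23 to 0.42 for Bcl2l11, -0.0161 to 0.30 for Bbc3, 0.11 to 0.54 for Pmaip1 and -0.0625 to 0.24 for Bid. The number of members above 0 was 9 under every alternative with all 8 libraries and 6 to 9 with a library left out, a count added after seeing the data, as were the directions of the lists under each alternative. The order of levels per length was the same in all 10 places except without TTI-101 2 or TTI-101 3, when 8 places were kept. The profile neighbours were not recomputed.

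Over all genes, 1132 passed an unadjusted p under 0.05, 1849 did without the filter and 422 to 2498 with a library left out (the lowest without TTI-101 3, the highest without TTI-101 2). At 0.01 there were 116, with 398 by DESeq2, 282 without the filter and 36 to 613 with a library left out. At an adjusted p under 0.05 there were 0, with 4 by DESeq2, 1 with Xist as covariate and 0 to 1 with a library left out. The causes of these shifts were not tested. Among the listed genes, the count at an unadjusted p under 0.05 was 2, and 1 to 10 with a library left out, the highest without TTI-101 2. Log2 fold changes that changed sign with a library left out ranged from -0.21 to 0.0293 for Bad, -0.0496 to 0.0912 for Bcl2l13 (-0.0092 with Xist as covariate), -0.0791 to 0.39 for Bik, -0.0086 to 0.13 for Casp2, -0.34 to 0.057 for Cdkn1a, -0.0478 to 0.20 for Cflar, -0.27 to 0.0711 for Foxo3, -0.24 to 0.0462 for Gsk3b, -1.51 to 0.0634 for Hrk, -0.14 to 0.0361 for Mdm4 and -0.18 to 0.0839 for Xiap.

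Deviations of libraries with the same replicate number correlated at 0.393, 0.0822, 0.159 and 0.0707. Only numbers 1 and 2 correlated best with their own number, and such correlations cannot decide whether the numbers pair the mice. Number 1 had the highest total count in both groups, at 26873509 in Control 1 and 25920509 in TTI-101 1. With the replicate block, 0 members, 5 listed genes and 1298 of all genes passed an unadjusted p under 0.05. With 4 mice a group, the interval of Pmaip1, counted 90 to 524 times in a library, reaches up to a 2.12-fold change.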
